A study of Mus musculus with 15 samples.

Results

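Acute phase and STAT3 target genes were followed in septic and sham mouse hearts: Saa3, Serpina3n, Hp and Timp1, which encode secreted proteins, the receptor genes Osmr and Il4ra, the transcription factor genes Stat3, Cebpb and Cebpd, and the feedback inhibitor gene Socs3. They are 10 of 12393 genes measured. Every probe set paired with 1 of these symbols alone was used, 19 of 20380. Saa3, Serpina3n, Hp and Timp1 had 1 probe set each, and the other 6 genes had 2 or 3.

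The acute phase response is the change in plasma protein production that follows infection or injury. Cytokines of the interleukin-6 family bind receptors that signal through gp130 and Janus kinases, which phosphorylate STAT3, a transcription factor that moves to the nucleus and switches on its targets. One of those targets, Socs3, encodes an inhibitor that shuts the receptor down again, and the C/EBP factors act beside STAT3 on many acute phase promoters. The liver is the main source of acute phase proteins, and heart tissue also expresses several of these genes.

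The study profiled whole hearts 48 h after surgery. Septic mice had their caecum ligated and perforated (CLP), a model in which leaking gut bacteria cause polymicrobial sepsis, and control mice had a sham operation. Wild-type C57/BL6 mice gave 3 sham hearts, 3 CLP hearts labelled Min Dep and 3 CLP hearts labelled Max Dep; what the Dep labels rank is not spelled out, and the study is of myocardial depression. Congenic B6.129P2-Nos2tm1Lau/J mice, which lack the inducible nitric oxide synthase in all tissues (iNOS KO), gave 3 sham and 3 CLP hearts. All mice had isoflurane for the surgery, buprenorphine and saline afterwards, and ketamine with xylazine before a carotid pressure recording and removal of the heart, which was emptied of blood. Age is not given. Each array is taken as 1 heart; the labels name each by its own code and do not say whether RNA was pooled.

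Wild-type values are standardised scores, in which each probe set has the same spread over the 9 arrays, so they show order and separation but no expression level and no fold change. Knockout values are centred scores that behave like log differences, with scale and log base not given. Both are arbitrary units, called standardised and log units here. The genotypes lie in separate tables from different array models, so their levels were not compared. Whole hearts mix many cell types, and more cells of a type cannot be told apart from more RNA per cell. Of the 3 knockout CLP arrays, replicate 1 held the middle value for 76.0% of probe sets and for 8 of the 10 genes. Its SD over probe sets was 0.68, against 1.09 and 1.05 in replicates 2 and 3. For Saa3 and Serpina3n it was instead the lowest of the 3 CLP arrays, so it was not exactly a mean of replicates 2 and 3. Its column still looked close to a mean of the CLP columns, so it may not be an independent array. It was left out of the knockout fit. Wild-type sham replicate 1 stood apart in sex-linked genes, with Xist at 2.64 against -0.17 or below in the other 8 arrays. The mean of 10 cardiomyocyte genes, markers of the heart muscle itself, lay between 0.16 and 0.23 in wild-type sham, -0.93 and 0.19 in Min Dep and -0.34 and 0.80 in Max Dep arrays, and between 0.04 and 0.75 in knockout sham and -1.72 and 0.95 in knockout CLP arrays. These list means overlapped, but 2 of the 10 genes, Ryr2 and Actc1, lay entirely lower in wild-type CLP than in sham arrays (6.11% of all genes). None lay entirely higher (5.89%). In knockout hearts 4 of the 10 lay entirely lower (14% of all genes) and 0 entirely higher (15%). Max Dep arrays alone lay entirely above sham arrays for 2 of the 10 (13.8% of all genes) and entirely below for 2 (12.7%). Tnnt2 was among the higher, by 1.60 ± 0.38 standardised units (limma adjusted p = 0.131). Of the 10, 0 passed the adjusted threshold. A rough measure of RNA integrity was the score of 5′ minus 3′ probe sets of Gapdh and Actb. In wild type each of these probe sets was scaled to the same spread, so their difference is not a 5′ to 3′ ratio. This difference lay between 0.39 and 1.76 in wild-type sham, -0.56 and 0.07 in Min Dep and -1.85 and 0.53 in Max Dep arrays. In the knockout table it was at -1.97, 0.21 and 0.98 in sham and -1.07, -2.06 and -0.78 in CLP arrays, lowest in CLP replicate 2. Its part in the results was tested only as a covariate.

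None of the 10 genes passed an adjusted p of 0.05 in any of the 5 comparisons with knockout CLP replicate 1 left out (limma, Benjamini-Hochberg over all 12393 genes). For wild-type CLP against sham, 0.718% of all genes passed. At an unadjusted p under 0.05, 3 of the 10 were higher (Saa3, Serpina3n and Socs3; 9.23% of all genes) and 1 was lower (Cebpb; 9.38% of all genes). The median difference of the 10 was 0.86 standardised units, against 0.02 over all genes, and 9 of the 10 differences were above 0 (50.8% of all genes). In Max Dep against sham, where 0.452% of all genes passed, 5 of the 10 were higher at an unadjusted p under 0.05 (8.87% of all genes) and none was lower (7.84%), with a median of 1.18 against -0.09 and 9 differences above 0 (46.8%). In Min Dep against sham, where 0.0565% passed, 1 was higher (7.65% of all genes) and 2 were lower (8.77%), with a median of 0.46 against 0.12 and 7 differences above 0 (54.5%). In knockout CLP against sham, where 0% passed, 5 were higher (5.83% of all genes), none was lower (6.08%), all 10 were above 0 (51.5%), and the median was 1.69 log units against 0.03. Max Dep arrays lay entirely above sham arrays for 5 of the 10 genes (13.8% of all genes) and entirely below for 0 (12.7%). Min Dep arrays lay entirely above for 3, Saa3, Serpina3n and Timp1 (10.9%), and below for 2 (12.4%). For Timp1 the margin was narrow, with the highest sham array at -0.384 and the lowest Min Dep array at -0.376. Its difference was 0.15 ± 0.92 standardised units. In tests of every probe set 0.55% passed for Min Dep. By eBayes, 0 of the 10 passed in these comparisons too. The comparisons of Max Dep and Min Dep with sham share the same 3 sham arrays.

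**Figure D1:**
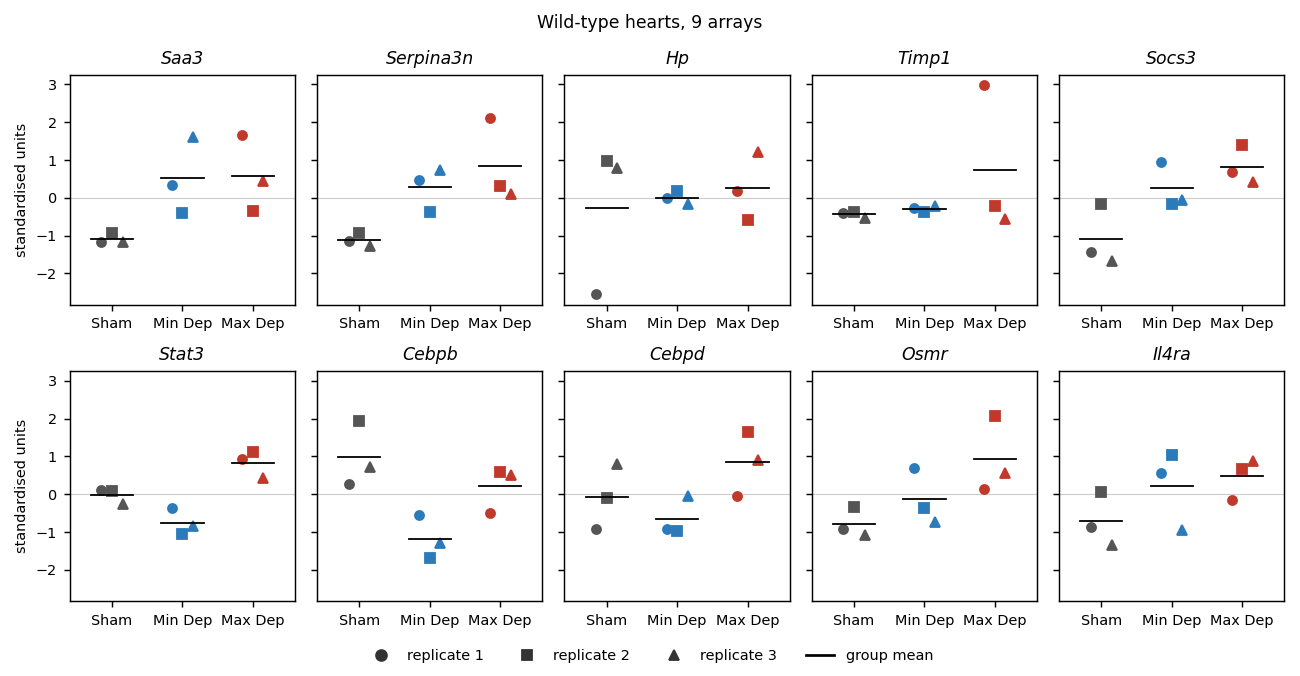
Value of each gene (mean of its probe sets, y axis, standardised units) in the 9 wild-type arrays by group, with marker shape for the replicate and a bar at the group mean. All 6 CLP arrays lay above all 3 sham arrays for Saa3 and Serpina3n, and Timp1 stood high in Max Dep replicate 1 alone (2.98).

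Saa3 encodes a serum amyloid A that is made mainly outside the liver, and Serpina3n a secreted inhibitor of serine proteases. The sequences before their start sites, and that of Socs3, are shown because these 3 genes had the smallest unadjusted p among those higher after wild-type CLP. The windows come from RefSeq (GRCm38.p6) and give the 250 bases before the start site used for each window, 5′ to 3′ on the strand of the gene, with matches to the STAT and C/EBP motifs in capitals. For these 3 genes that start site lies inside the gene positions given below. The windows of Saa3 and Socs3 lie wholly inside those positions, and that of Serpina3n runs past the start of its gene.
Saa3, chr7:46715677-46715926, minus strand: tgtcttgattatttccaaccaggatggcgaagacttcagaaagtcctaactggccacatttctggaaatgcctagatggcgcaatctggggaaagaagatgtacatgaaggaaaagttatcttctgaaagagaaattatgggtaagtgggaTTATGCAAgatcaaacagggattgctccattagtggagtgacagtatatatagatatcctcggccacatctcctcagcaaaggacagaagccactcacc
Serpina3n, chr12:104406458-104406707, plus strand: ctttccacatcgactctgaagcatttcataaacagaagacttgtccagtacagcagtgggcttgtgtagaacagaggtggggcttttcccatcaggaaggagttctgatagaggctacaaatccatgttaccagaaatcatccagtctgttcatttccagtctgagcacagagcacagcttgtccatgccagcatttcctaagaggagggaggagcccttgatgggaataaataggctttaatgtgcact
Socs3, chr11:117969367-117969616, minus strand: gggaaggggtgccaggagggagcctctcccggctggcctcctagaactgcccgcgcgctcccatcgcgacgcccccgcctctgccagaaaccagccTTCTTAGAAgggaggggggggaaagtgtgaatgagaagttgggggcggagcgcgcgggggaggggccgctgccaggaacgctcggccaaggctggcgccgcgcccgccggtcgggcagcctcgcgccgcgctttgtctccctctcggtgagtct

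Motifs were searched on both strands of windows of 300 bases that open 250 bases before the start site used for each window. The STAT motif TTCNNNGAA was found in Socs3 at position -154 (TTCTTAGAA) and in 8.3% of 32851 promoter windows. The C/EBP motif TTGCNNAA was found in Saa3 on the opposite strand, where the strand of the gene reads TTATGCAA at position -99, and in 10.8% of windows. The NF-kB motif was found in 1.2% of windows. Of the 10 genes, 8 had a window in the table; 1 of them held the STAT motif, 1 the C/EBP motif and 0 the NF-kB motif.

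Saa3 (chromosome 7, 46711998 to 46719615) was at -1.16, -0.93 and -1.18 in wild-type sham arrays. It was at 0.35, -0.39 and 1.60 in Min Dep and 1.67, -0.36 and 0.44 in Max Dep arrays. All 6 CLP arrays lay above all 3 sham arrays, and the CLP arrays were spread much more widely than the sham arrays. The CLP difference was 1.64 ± 0.59 standardised units (SE; unadjusted p = 0.0313, limma adjusted p = 0.219). In the knockout table Saa3 was at 0.02, -0.02 and -0.34 in sham and 2.76, 5.60 and 3.30 in CLP arrays. Every knockout CLP array lay above every sham array, and CLP replicate 2 was highest. The difference was 4.56 ± 0.71 log units (SE; limma adjusted p = 0.0924), the largest of the 10 genes, and 4.0 ± 0.72 with CLP replicate 1 included (limma adjusted p = 0.0451). With all 6 knockout arrays 2.38% of all genes passed, and Saa3 was the one gene of the 10 that did; 6 of the 10 were higher at an unadjusted p under 0.05 (9.41% of all genes) and 0 lower (9.34%), and all 10 were above 0 (52.1%). Saa3 did not pass when every probe set was tested in those 6 arrays (limma adjusted p = 0.0559), where 1.18% of probe sets passed. Because CLP replicate 1 may not be an independent array, p-values from all 6 arrays can be too small.

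Serpina3n (chromosome 12, 104406646 to 104414334) was at -1.13, -0.92 and -1.27 in wild-type sham, 0.47, -0.38 and 0.75 in Min Dep and 2.12, 0.31 and 0.10 in Max Dep arrays. Here too the 6 CLP arrays lay above the 3 sham arrays. The CLP difference was 1.67 ± 0.52 standardised units (SE; unadjusted p = 0.0181, limma adjusted p = 0.174). In knockout hearts it was at 0.02, -0.03 and -0.02 in sham and 2.41, 4.75 and 2.55 in CLP arrays. Knockout sham arrays were almost equal, and every CLP array lay above them. The difference was 3.66 ± 0.68 log units (SE; limma adjusted p = 0.112). Separation of all 6 wild-type CLP arrays above sham was seen in 2 of the 10 genes and in 5.89% of all genes; separation below sham was seen in 0 of the 10 and in 6.11% of all genes. Serpina3n and Saa3 were also the most alike pair among the 10 genes, with values that differed on average by 0.29 standardised units over the 9 wild-type arrays. Serpina3n belongs to a cluster of closely related serpin genes, and cross-hybridisation of its probe set was not tested.

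Hp encodes haptoglobin, which binds free haemoglobin in plasma and is expressed in liver and adipose tissue (chromosome 8, 109575128 to 109579172). It was at -2.55, 0.96 and 0.78 in wild-type sham arrays, -0.01, 0.19 and -0.17 in Min Dep and 0.18, -0.59 and 1.21 in Max Dep arrays. The groups overlapped, and sham replicate 1 was the lowest of the 9 arrays. The CLP difference was 0.40 ± 0.89 standardised units (SE; limma adjusted p = 0.859), and without sham replicate 1 its sign turned, to -0.74. The mean of 8 adipocyte genes was -0.06 in sham replicate 1 against 1.27 and 0.85 in the other sham arrays, and lay between -0.96 and 0.01 in the CLP arrays; the part of fat in the Hp values was not tested. In knockout hearts Hp was at -0.49, -1.71 and -0.59 in sham and 0.91, 2.36 and 0.55 in CLP arrays. All 3 CLP arrays lay above all 3 sham arrays, with a difference of 2.38 ± 0.70 log units (SE; unadjusted p = 0.0127, limma adjusted p = 0.248). The adipocyte list there had 3 of 8 genes with a positive difference and 0 past the threshold, with list means between -1.50 and -0.50 in CLP and between -0.02 and 1.13 in sham arrays. Its members differed among themselves: Fabp4 differed by -5.56 ± 0.89 log units (SE; limma adjusted p = 0.0924), while Adipoq, the gene of the fat hormone adiponectin, was at 0.24, 0.35 and 0.16 in CLP and -0.79, -0.07 and -0.03 in sham arrays.

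Timp1 encodes an inhibitor of matrix metalloproteinases and is a known target of oncostatin M signalling (chromosome X, 20870166 to 20874737). In 8 wild-type arrays it lay between -0.56 and -0.21. The remaining array, Max Dep replicate 1, was at 2.98. The Max Dep difference from sham was 1.17 ± 0.92 standardised units (SE; limma adjusted p = 0.575) and 0.04 without that array. In knockout hearts Timp1 was at 0.02, -0.72 and 0.43 in sham and 0.96, 3.09 and -0.13 in CLP arrays. CLP replicate 2 stood high and CLP replicate 3 lay inside the sham range, so the difference of 1.57 ± 0.95 log units (SE; limma adjusted p = 0.61) was -0.04 without replicate 2. The other 3 inhibitors of the family had negative CLP differences in both tables. Timp3 differed by -1.95 ± 0.34 and Timp2 by -1.70 ± 0.31 standardised units in wild type (SE; limma adjusted p = 0.0618 and 0.0654), and all 6 CLP arrays lay below all 3 sham arrays for each. Timp4, which is abundant in heart, differed by -1.32 ± 0.56 with overlapping groups. In knockout hearts Timp3 differed by -5.08 ± 1.10 log units (SE; limma adjusted p = 0.148).

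The receptor genes were examined next. Osmr encodes the subunit that pairs with gp130 to bind oncostatin M (chromosome 15, 6813568 to 6874968). Its probe set 1418674_at was at -1.51, -0.60 and -1.27 in sham, 0.28, -0.25 and -0.35 in Min Dep and 0.79, 1.87 and 1.23 in Max Dep arrays. The 3 groups did not overlap with one another, in the order sham, Min Dep, Max Dep. When every probe set was tested it differed from sham by 2.42 ± 0.37 standardised units in Max Dep hearts (SE; limma adjusted p = 0.0509) and by 1.72 ± 0.32 for both CLP groups (limma adjusted p = 0.0559). These were the smallest adjusted p-values of any of the 19 probe sets in wild type, and in those tests 1.08% and 2.52% of all probe sets passed and 0 of the 19. Max Dep hearts exceeded Min Dep hearts by 1.40 ± 0.37 (unadjusted p = 0.00976, limma adjusted p = 0.406).

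The other Osmr probe set, 1418675_at, was at -0.30, -0.06 and -0.89 in sham, 1.10, -0.48 and -1.09 in Min Dep and -0.52, 2.29 and -0.10 in Max Dep arrays. Its groups overlapped and its highest value was Max Dep replicate 2, as for 1418674_at. The mean of both differed from sham by 1.70 ± 0.62 in Max Dep hearts (SE; unadjusted p = 0.0341, limma adjusted p = 0.256) and by 0.64 ± 0.62 in Min Dep hearts (limma adjusted p = 0.657). In knockout hearts the mean was at 0.18, -0.96 and 0.09 in sham and 0.96, 2.56 and 0.37 in CLP arrays. All CLP arrays lay above the sham arrays, with a difference of 1.70 ± 0.75 log units (SE; limma adjusted p = 0.453).

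Il4ra encodes the receptor chain for interleukin-4 and interleukin-13 and is induced through STAT3 in several cell types (chromosome 7, 125552271 to 125579474). The mean of its 3 probe sets differed from sham by 1.06 ± 0.56 standardised units after wild-type CLP (SE; limma adjusted p = 0.377), with overlapping groups. Its probe set 1421034_a_at lay between 0.21 and 1.00 in the 6 CLP arrays, close together, while its sham arrays were at -2.40, 0.41 and -1.09. The other 2 probe sets had their lowest CLP value in Min Dep replicate 3, at -2.02 and -1.01. In knockout hearts the gene differed by 0.66 ± 0.49 log units (SE; limma adjusted p = 0.697), the smallest difference of the 10 genes there.

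Among the transcription factors, Stat3 (chromosome 11, 100886806 to 100939594) was at 0.10, 0.08 and -0.26 in wild-type sham arrays, -0.37, -1.05 and -0.84 in Min Dep and 0.92, 1.11 and 0.42 in Max Dep arrays. The 3 groups did not overlap, with Min Dep below sham and Max Dep above it. Max Dep hearts differed from sham by 0.84 ± 0.25 standardised units and Min Dep hearts by -0.73 ± 0.25 (SE; unadjusted p = 0.016 and 0.0283, limma adjusted p = 0.19 and 0.242). Stat3 in Max Dep hearts exceeded that in Min Dep hearts by 1.57 ± 0.25, with an unadjusted p of 0.000815, the smallest of the 10 genes in that comparison, and a limma adjusted p of 0.258. In that comparison 0% of all genes passed; 2 of the 10 genes were higher at an unadjusted p under 0.05 (5.21% of all genes) and none was lower (4.6%). For 2 of the 10, Stat3 and Cebpb, Max Dep arrays lay entirely above Min Dep arrays (7.89% of all genes) and for 0 entirely below (7.43%), and all 10 differences were above 0 (46.7%).

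The 3 Stat3 probe sets did not behave alike. Probe set 1426587_a_at was at -0.95, -1.79 and -0.93 in Min Dep and 1.34, 1.12 and 0.93 in Max Dep arrays, a difference of 2.35 ± 0.47 (SE; limma adjusted p = 0.305), but its sham arrays, at 1.12, -0.50 and -0.15, reached into the Max Dep range. Probe set 1460700_at differed by 1.40 ± 0.73 between the septic groups, which did not overlap. Probe set 1424272_at differed by 0.97 ± 1.01 and was spread from -1.64 to 1.68 within sham arrays alone. The separation of Stat3 from sham was not seen in any single probe set in both septic groups. In knockout hearts Stat3 was at -0.55, -0.21 and 0.05 in sham and 0.48, 1.38 and 0.11 in CLP arrays. The difference was 0.98 ± 0.53 log units (SE; limma adjusted p = 0.55).

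Cebpb encodes C/EBP beta, first named as a nuclear factor of interleukin-6 expression (chromosome 2, 167688915 to 167690432). Unlike the other genes of the group it lay lower after wild-type CLP. It was at 0.26, 1.94 and 0.72 in sham arrays, -0.56, -1.70 and -1.29 in Min Dep and -0.49, 0.59 and 0.51 in Max Dep arrays. Min Dep arrays lay below all sham arrays, and Max Dep arrays overlapped them. The CLP difference was -1.46 ± 0.49 standardised units (SE; unadjusted p = 0.0246, limma adjusted p = 0.196), with -2.15 ± 0.57 for Min Dep and -0.77 ± 0.57 for Max Dep hearts; the Max Dep value was -0.29 without sham replicate 2 and -0.42 without Max Dep replicate 1. Both probe sets had negative differences from sham in both septic groups, and for 1427844_a_at all 6 CLP arrays lay below all 3 sham arrays (-1.73 ± 0.41, limma adjusted p = 0.0877 when every probe set was tested). In knockout hearts the sign was opposite. Cebpb was at -1.20, -1.13 and 0.39 in sham and 0.64, 1.73 and 0.35 in CLP arrays, a difference of 1.69 ± 0.70 log units (SE; unadjusted p = 0.0487, limma adjusted p = 0.417). The difference between the genotypes was not tested, because the tables have different units.

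Cebpd encodes C/EBP delta, which is induced through STAT3 in many cell types (chromosome 16, 15887286 to 15889545). It was at -0.91, -0.10 and 0.81 in wild-type sham, -0.92, -0.98 and -0.03 in Min Dep and -0.05, 1.66 and 0.92 in Max Dep arrays. Neither septic group separated from sham, and the Max Dep and Min Dep arrays overlapped by a narrow margin. Max Dep hearts differed from Min Dep hearts by 1.49 ± 0.62 standardised units (SE; unadjusted p = 0.0547, limma adjusted p = 0.514). In knockout hearts Cebpd differed by 1.27 ± 0.62 log units (SE; limma adjusted p = 0.5). The lowest CLP array and the highest sham array were both at 0.44, without overlap but by a narrow margin (0.444 and 0.435). Probe set 1423233_at overlapped there, with CLP arrays from 0.44 and sham arrays up to 0.87, and 1456605_at did not. In wild type Max Dep hearts differed from Min Dep hearts by 2.02 ± 0.68 for 1423233_at, with overlap. For 1456605_at the difference was 0.95 ± 1.00, without overlap.

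**Figure D2:**
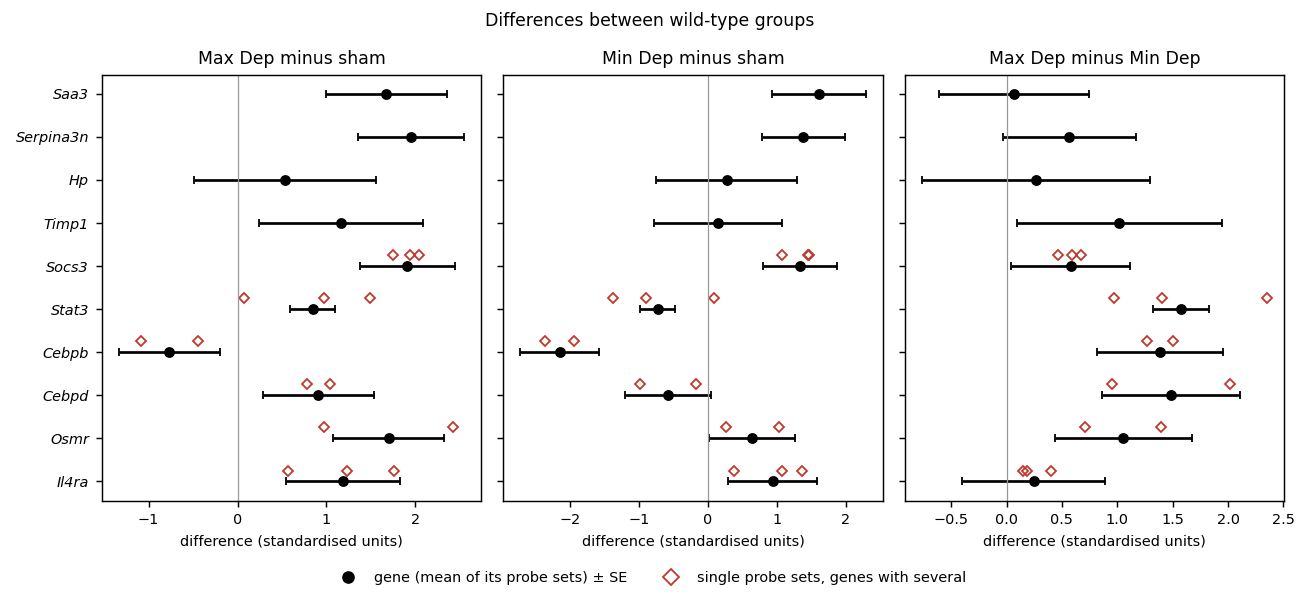
Differences between wild-type groups in standardised units (x axis) for the 10 genes, as the mean of a gene's probe sets with its SE (filled circles) and, for genes with several, each probe set alone (open diamonds). Against sham, Saa3, Serpina3n and Socs3 lie to the right in both septic groups, Cebpb lies to the left in both, and Stat3 changes side; all 10 points lie right of 0 between Max Dep and Min Dep, with Saa3 at 0.06.

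Socs3 encodes the feedback inhibitor that binds gp130 and its kinases (chromosome 11, 117966079 to 117970336). The mean of its 3 probe sets was at -1.44, -0.15 and -1.66 in wild-type sham, 0.96, -0.15 and -0.06 in Min Dep and 0.69, 1.38 and 0.41 in Max Dep arrays. Max Dep arrays lay above all sham arrays, and Min Dep replicate 2 met sham replicate 2. The CLP difference was 1.62 ± 0.47 standardised units (SE; unadjusted p = 0.013, limma adjusted p = 0.149), the smallest p of the 10 genes in that comparison. Its 3 probe sets gave 1.70, 1.75 and 1.42, and for the first 2 of these all CLP arrays lay above all sham arrays. In knockout hearts Socs3 was at -0.43, 0.55 and -0.76 in sham and 1.78, 4.01 and 1.60 in CLP arrays. Every CLP array lay above every sham array, with a difference of 3.02 ± 0.81 log units (SE; unadjusted p = 0.00848, limma adjusted p = 0.21).

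Across the knockout table CLP replicate 2 was the highest of the 6 arrays for all 10 genes, against 17.6% of all genes, a share that includes genes not higher after CLP. Without it CLP replicate 3 was the only CLP array left in the fit, so all 10 knockout differences had to be smaller. Saa3 then differed by 3.41 and Serpina3n by 2.56 log units. The other 8 moved by more than 1.5 times: Hp to 1.48, Timp1 to -0.039, Socs3 to 1.81, Stat3 to 0.35, Cebpb to 1.0, Cebpd to 0.76, Osmr to 0.60 and Il4ra to 0.31 log units. Groups without overlap, CLP above sham, were found in 7 of the 10 genes with the 2 fitted CLP arrays (15% of all genes) and in 7 with all 3 (14.6%); CLP below sham was found in 0 (14% and 12.7%). In wild type no array was highest throughout: Max Dep replicate 2 was highest for 4 genes and Max Dep replicate 1 for 3, against 9.47% and 10.3% of all genes.

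**Figure D3:**
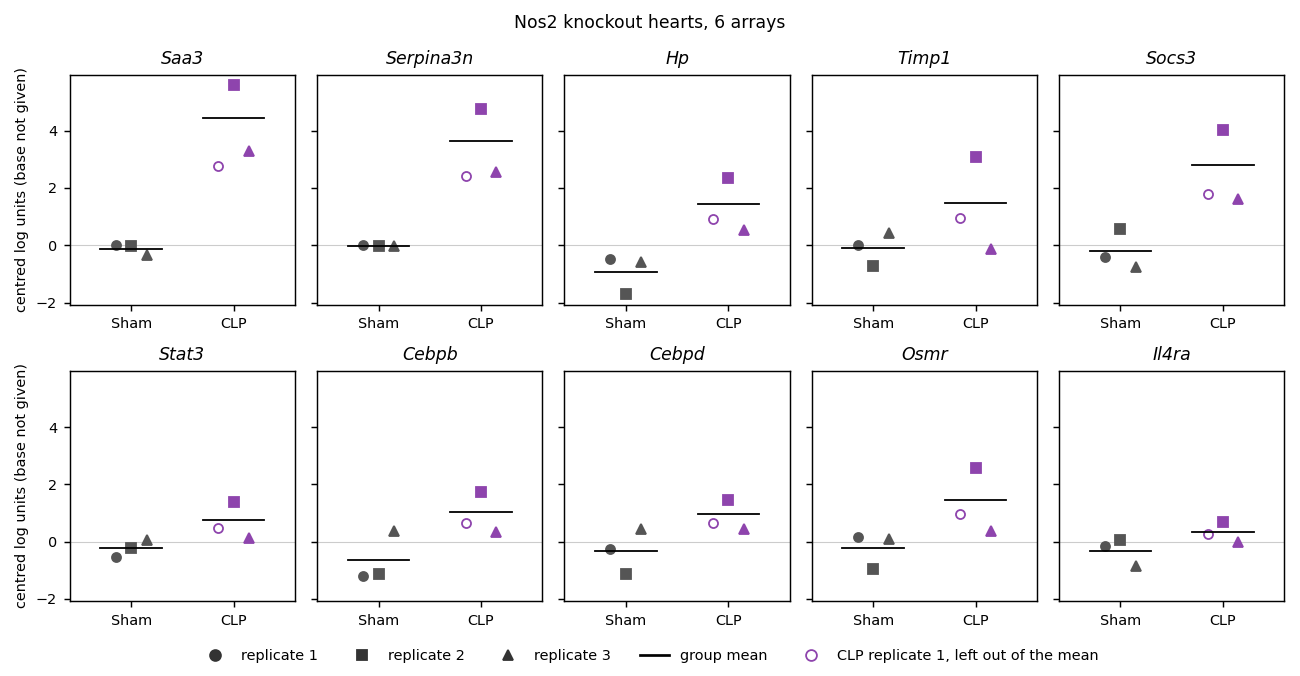
Value of each gene (mean of its probe sets, y axis, centred log units) in the 6 Nos2 knockout arrays by group, with marker shape for the replicate and a bar at the group mean; the open circle is CLP replicate 1, which is left out of the mean. Saa3 and Serpina3n show the widest gap between sham and CLP, and the square of CLP replicate 2 is highest in every panel.

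Markers of white blood cells lay higher after CLP in both tables. Of 14 macrophage and monocyte genes, 14 had a positive wild-type CLP difference and 2 rose (Tyrobp and Fcer1g); the mean of the list lay between -1.38 and -0.46 in sham, -0.16 and 0.52 in Min Dep and 0.54 and 1.09 in Max Dep arrays. Of 11 neutrophil genes, 9 were positive and 2 rose (S100a8 and S100a9), with list means between -0.90 and -0.50 in sham, -0.18 and 0.71 in Min Dep and 0.03 and 0.90 in Max Dep arrays. In the knockout table the macrophage list lay between 1.33 and 2.27 after CLP and -0.69 and 0.17 after sham surgery. The 4 genes that rose did so in the unmoderated limma fit (adjusted p between 0.029 and 0.0498), in which 0.718% of all genes passed. With eBayes 0 of the 4 passed (adjusted p = 0.0969 for each), with the 5′ minus 3′ covariate 0 passed (adjusted p between 0.129 and 0.194), and with arrays centred on their median 3 passed, all but S100a9 (adjusted p = 0.0514). The part of these cells in the values of Saa3, Serpina3n, Socs3, Osmr and Il4ra was not tested. The mean of 11 hepatocyte genes, which would mark liver RNA, lay between -0.48 and 0.26 in all 9 wild-type arrays, with Max Dep replicate 3 lowest, and 3 of the 11 were positive after CLP. In knockout hearts the list mean lay between 0.07 and 0.26 in CLP and between -0.58 and 0.14 in sham arrays. There 6 of the 11 were positive, and CLP arrays lay entirely above sham for 2, Ttr and Alb (15% of all genes). The part of liver RNA in the values was not tested. Of 9 endothelial genes, 6 were positive in wild type and 1 in knockout hearts, where the list mean lay between 0.51 and 1.84 in sham and -2.27 and -0.44 in CLP arrays. Fibroblast genes lay lower after wild-type CLP, with 1 of 11 positive and 0 past the threshold. Their list means lay between 0.81 and 1.00 in sham and between -1.60 and 0.28 in CLP arrays. The part of fibroblasts in the values of Saa3 and Serpina3n was not tested.

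The wider pathway was described with lists of other genes, none of whose members passed the adjusted threshold in any of these comparisons when knockout CLP replicate 1 was left out. Of 10 gp130 cytokine and receptor genes, 3 had a positive wild-type CLP difference, with a median of -0.07 standardised units against 0.02 over all genes. Il11, a cytokine that acts through gp130, lay between 0.65 and 1.36 in Min Dep arrays and between -1.13 and 0.42 in all other wild-type arrays, and differed from sham by 1.79 ± 0.44 in Min Dep hearts (SE; unadjusted p = 0.0069, limma adjusted p = 0.142). Ctf1, which encodes cardiotrophin, differed by -1.33 ± 0.50 after CLP (limma adjusted p = 0.24). Among 13 JAK and STAT genes, 7 were positive and the median was 0.04. Jak3 differed by 1.48 ± 0.43 with no overlap, and Stat5a by -1.55 ± 0.46 with no overlap (SE; limma adjusted p = 0.156 and 0.159).

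Of 11 other feedback inhibitor genes 1 was positive, with a median of -0.28, so the positive difference of Socs3 was not shared by most of this list. Socs2, an inhibitor of growth hormone signalling, lay between 0.80 and 1.26 in sham arrays and between -1.48 and 0.28 in CLP arrays, and differed by -1.54 ± 0.49 (SE; limma adjusted p = 0.178). In knockout hearts Socs2 differed by -2.66 ± 0.64 log units (SE; limma adjusted p = 0.179). The 3 measured C/EBP genes other than Cebpb and Cebpd had a median of 0.51, and Cebpa differed by -1.55 ± 0.67 (limma adjusted p = 0.289). Of 9 genes of the interleukin-4 and interleukin-13 axis, 5 were positive. Il13ra2, the gene of this list with the smallest p, differed by 1.36 ± 0.38 with overlapping groups (limma adjusted p = 0.143). Retnla, a marker of alternatively activated macrophages, differed by -1.78 ± 0.54 (limma adjusted p = 0.164).

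Of 26 other acute phase protein genes, 15 were positive in wild type with a median of 0.35, and 6 were higher and 2 lower at an unadjusted p under 0.05, against 9.23% and 9.38% of all genes. Itih3, an inter-alpha-trypsin inhibitor chain, lay between -1.71 and -0.78 in sham and between 0.01 and 1.07 in CLP arrays, and differed by 1.80 ± 0.32 (SE; limma adjusted p = 0.0633). Hamp, the iron hormone hepcidin, differed by 1.75 ± 0.45 (limma adjusted p = 0.124). Ttr, transthyretin, is a carrier protein whose plasma level falls in the acute phase, and it is also a hepatocyte marker. It differed by 1.34 ± 0.28 (limma adjusted p = 0.0859) and, in knockout hearts, by 3.96 ± 0.50 log units (limma adjusted p = 0.082). Lcn2, an iron-sequestering protein, differed by 4.53 ± 0.64 log units in knockout hearts (limma adjusted p = 0.0873). Of the 26 genes 19 were positive there, with a median of 0.30 log units against 0.03 over all genes. At an unadjusted p under 0.05, 3 were higher and 1 lower, against 5.83% and 6.08% of all genes. The list means overlapped, between 0.13 and 0.47 in CLP and between -0.58 and 0.50 in sham arrays.

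Of 22 other known STAT3 targets, 15 were positive in wild type with a median of 0.38, and 18 in knockout hearts with a median of 1.63 log units. In knockout hearts 10 of the 22 were higher and none lower at an unadjusted p under 0.05, against 5.83% and 6.08% of all genes. The mean of the list was 2.20 in knockout CLP replicate 2 but 0.54 in replicate 3, against -0.22, 0.47 and -0.62 in knockout sham arrays. These knockout results thus rest largely on CLP replicate 2. Lrg1, a secreted glycoprotein of the acute phase, was at -1.53, -0.63 and -1.04 in sham, 0.45, -0.63 and 0.57 in Min Dep and 2.12, 0.25 and 0.47 in Max Dep arrays. Max Dep arrays lay above sham, with a difference of 2.01 ± 0.61 (SE; limma adjusted p = 0.193). Among all genes outside the 10, Lrg1 was the one whose wild-type values were nearest to those of Serpina3n, with a mean absolute difference of 0.20 standardised units over 9 arrays. By the same measure Golga4 (0.15) was nearest to Saa3, Fstl3 (0.17) to Socs3 and Timp4 (0.24) to Cebpb.

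**Figure D4:**
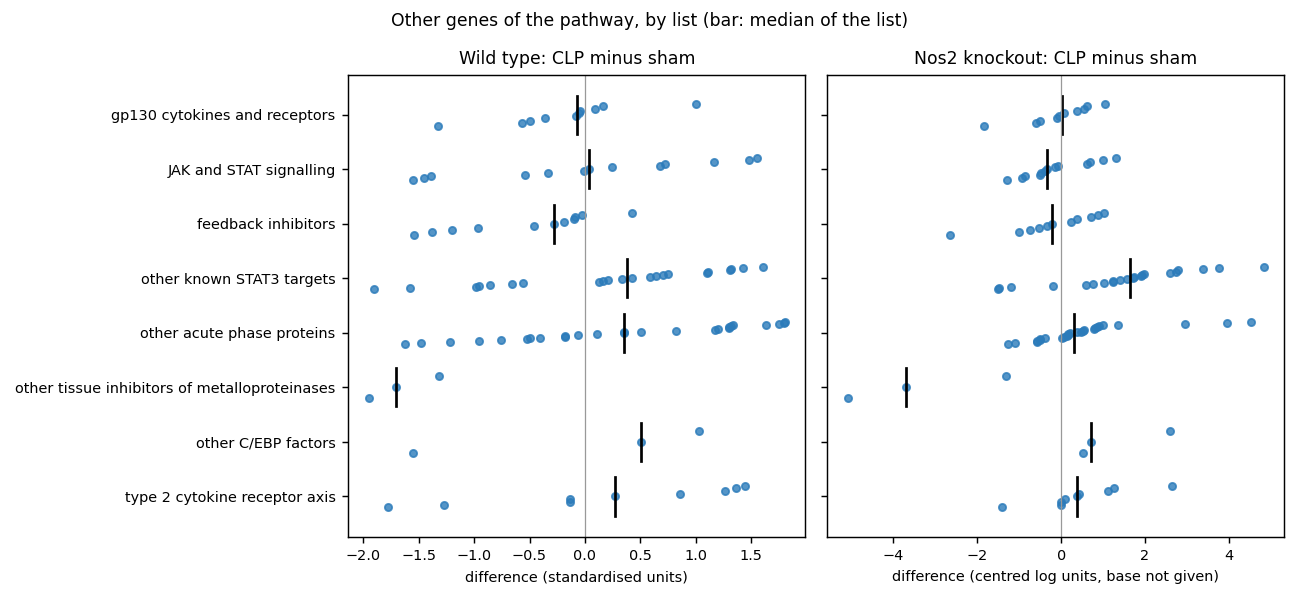
CLP minus sham for every measured gene of 8 pathway lists (points) with the list median (bar), in standardised units for wild type (left) and log units for knockout hearts (right). The other 3 metalloproteinase inhibitors lie left of 0 in both panels, and other known STAT3 targets have a median of 0.38 in wild type and 1.63 in knockout hearts. The knockout panel leaves out CLP replicate 1, and the mean of the STAT3 target list was 2.20 in CLP replicate 2 and 0.54 in CLP replicate 3.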

How the data were processed

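The deposited values are scores in 2 tables of 22690 probe sets, 9 wild-type and 6 knockout arrays. For the software by which the authors made these scores: not given in the sources used here. Once a linear change per array was reversed, each probe set of the deposited wild-type table had an SD of 1 over the 9 arrays. No intensities were used, so no filter on dim probe sets was possible, and precision is limited by 3 arrays per group. After leaving out 64 control probe sets, 20380 probe sets were paired with 1 gene by the platform annotation (691 with several, 1555 with none), and probe sets of a gene were averaged to 12393 genes. Groups come from the sample titles; replicate numbers only name arrays, and where nothing states separate animals, p-values measure the spread between arrays. Fits used limma 3.58.1 (lmFit, R 4.3.3). A single fit held the 9 wild-type arrays, with unmoderated statistics on 6 residual degrees of freedom, and another held 5 knockout arrays, with eBayes. P-values were adjusted by Benjamini-Hochberg over all genes, with a threshold of 0.05. Fits were tested on simulated data. Alternatives were eBayes, single probe sets, other scalings, a 5′ minus 3′ control covariate and leaving out each array. Named beside the 10 genes were genes chosen from up to 3 per pathway list and comparison with the smallest p, and from those nearest to each of the 10. Cell type markers were named if past the threshold or among those with the smallest p of their list. Not every such gene is named, and Adipoq was named outside this rule. The 10 genes, the lists and the tests were chosen with earlier results of these data known. Promoter windows and gene positions are from RefSeq, GRCm38.p6.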

Additional observations from a re-analysis of the deposited data

Results flagged for a closer look

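Timp1 in Max Dep replicate 1, at 2.98 standardised units, stood far from the other 5 wild-type CLP arrays, which lay between -0.56 and -0.21. The Stat3 probe set 1424272_at stood far from the others in Max Dep replicate 2, at 1.74. These are 2 of 25 gene and probe set profiles examined in the 6 CLP arrays, and chance flags profiles at a rate of about 0.05.

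Cebpb had differences of opposite sign in the genotypes, neither past the threshold and both with overlapping groups: every wild-type CLP array lay below the wild-type sham mean (mean difference -1.46 standardised units; -2.15 for Min Dep and -0.77 for Max Dep hearts), and both fitted knockout CLP arrays lay above the knockout sham mean (1.69 log units). Stat3, as the mean of its 3 probe sets, lay below the sham mean in every Min Dep array (-0.73) and above it in both fitted knockout CLP arrays (0.98 log units). Its probe sets 1424272_at, 1426587_a_at and 1460700_at differed from sham by -0.90, -1.38 and 0.09 in Min Dep hearts. In knockout hearts they differed by 0.10, 1.78 and 1.06 log units, and the groups overlapped for the first 2. Neither difference between genotypes was tested, and genotype cannot be told apart from table and array model.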

How the results depend on the processing

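The count of the 10 genes past the threshold was 0 in each of the 5 comparisons and stayed 0 in wild type under every alternative run: eBayes, every probe set, only the groups compared, array standardisation undone, arrays centred on their median, the 5′ minus 3′ control covariate and each array left out (range 0 to 0). In knockout hearts it became 1 (Saa3, 4.0, limma adjusted p = 0.0451) with all 6 arrays, and stayed 0 in the other fits that kept both fitted CLP arrays. The 6 arrays include CLP replicate 1, which may not be independent, so that p-value can be too small. Over all genes the wild-type CLP count of 89 was 0 with eBayes, 513 by probe set, 179 with standardisation undone, 1 with the covariate and 0 to 186 with an array left out. Max Dep minus Min Dep turned to -0.13 for Saa3 and -0.042 for Il4ra with standardisation undone, and to -0.16 for Saa3 with the covariate. Undoing standardisation moved the median of all genes from 0.12 to 0.27 in Min Dep and from -0.08 to -0.28 in Max Dep against Min Dep. Signs turned in some fits with an array left out. For CLP against sham the ranges were -0.74 to 1.02 for Hp, -0.060 to 0.16 for Stat3 and -0.26 to 0.60 for Cebpd. Hp ranged from -0.61 to 1.15 in Max Dep and -0.87 to 0.88 in Min Dep against sham. For Max Dep against Min Dep they were -0.48 to 0.61 for Saa3, -0.070 to 0.94 for Serpina3n, -0.21 to 0.69 for Hp, -0.10 to 1.67 for Timp1 and -0.34 to 0.66 for Il4ra, and for knockout Timp1 -0.039 to 3.17. The causes were not tested. Where an array left out leaves 1 knockout CLP array, that array is assumed to vary like the sham arrays. No paired analysis was possible because the labels give no replicate numbers. A filter on low values was not run. The shorter STAT spacing TTCNNGAA was found in Saa3 alone of the 8 windows and in 8.52% of all windows. Signal over background is unknown, and with 3 arrays a group only separations much larger than the spread within groups pass.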

Other observations

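Ccnd1, which encodes cyclin D1 and is a known STAT3 target, lay lower after CLP in wild type and higher in knockout hearts. It was at 1.18, 1.38 and 1.23 in wild-type sham arrays and between -1.30 and 0.23 in the 6 CLP arrays, with a difference of -1.90 ± 0.39 standardised units (SE; limma adjusted p = 0.0818). In knockout hearts it was at 0.04, -1.57 and -0.57 in sham and 1.74, 2.55 and 2.83 in CLP arrays, with a difference of 3.39 ± 0.58 log units (SE; limma adjusted p = 0.105). Every CLP array lay below every sham array in the first table and above every sham array in the other, and the difference between the genotypes was not tested.

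Fos, an immediate early transcription factor gene, differed by 4.83 ± 0.71 log units in knockout hearts (SE; limma adjusted p = 0.0873) and Pim1, which encodes a serine/threonine kinase, by 2.60 ± 0.53 (limma adjusted p = 0.132). In wild type the 6 CLP arrays overlapped the sham arrays for both genes.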
